A study of Mus musculus with 32 samples.

Results

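Transcripts of 9 transcription factor genes of the neuronal lineage were followed in tumors of a pair of mouse models of MYC-driven and MYCN-driven medulloblastoma. The genes are Neurog1, Neurog2, Neurod2, Neurod4, Neurod6, Atoh7, Olig2, Bhlhe22 and Insm1, taken by symbol from the 37310 genes of the count table, where each had 1 row. RNA from 6 GMYC and 8 GTML tumor biopsies had been sequenced, and the comparison asks in which of the models each factor was transcribed at a higher level. GMYC mice carried the alleles Glt1-tTA and TRE-MYC, so that a tetracycline transactivator under the Glt1 (glutamate transporter) promoter drove MYC. GTML mice carried the same Glt1-tTA driver with MYCN in place of MYC, and the methods of the study give FVB/N as the background of all crosses. Doxycycline, which turns both transgenes off, is not among the labels of these tumors, and ages of the mice are not in the labels. All biopsies were bulk hindbrain tumor tissue from a Glt1-driven model, with host brain cells in unknown proportion.

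Proneural factors are basic helix-loop-helix (bHLH) proteins that pair with E proteins, bind E-box sequences and turn dividing progenitors towards a neuronal fate. Neurogenins and Atoh7 act early in this sequence, the NeuroD factors act later, during differentiation, and ID, HES and HEY proteins oppose them. Olig2 and Bhlhe22 are bHLH factors that mostly repress transcription, and Insm1 is a zinc finger protein of progenitors leaving the cell cycle, so that 8 of the 9 are bHLH proteins. In the cerebellum the granule neuron lineage starts with Atoh1 and continues with Neurod1, whereas the retina uses Atoh7, Neurod4, Bhlhe22 and Insm1 in its own progenitors.

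Total counts ran from 6218378 to 7279811 in GMYC tumors and from 4602294 to 6317404 in GTML tumors. Reads in the Myc row were higher in GMYC and those in the Mycn row higher in GTML, with log2 fold changes (GTML over GMYC) of -4.63 and 2.79 in the direction of each model's transgene, and no overlap between models. GMYC tumor 6 had the lowest Myc of its model, at 33.4 CPM (next 134 CPM), beside 34.4 CPM of Mycn. Otx2, a defining gene of Group 3 medulloblastoma, had 1392 or more counts in every tumor, and Atoh1 had at most 3. Several features ran across tumors and touch the results that follow. GTML tumor 2 resembled the other GTML tumors less than it resembled the GMYC tumors (median Spearman rho across genes 0.910 and 0.929). The study describes 1 outlier GTML tumor whose profile also resembled the SHH subgroup of medulloblastoma. Part of the study's own comparisons used fewer GTML tumors than were deposited, for its test of differential expression those classed as Group 3. The labels do not name the tumor left out, so all 8 are used here. Whether the outlier of the study is GTML tumor 2 was not tested. Small nucleolar RNA genes took at least 0.3% of the counts in GMYC tumors 1 to 4 and GTML tumors 1 and 2 and less in the other 8 tumors. In the order of the sample records, the tumors at or above 0.3% all come before those below it. What that order stands for is not in the labels. Transcripts of Y-linked genes were near absent in GTML tumors 2, 3, 5 and 8 and present in all other tumors. The granule neuron genes Gabra6 and Cbln3 had 279 and 436 counts in GMYC tumor 1 and 61 and 74 in GMYC tumor 3, and at most 4 and 12 elsewhere. How far any of these features takes part in a difference between models was not tested, and values within or without the tumors concerned are given beside the results.

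Of the 9 factors, Neurog2 and Neurod2 were higher in GTML tumors and Olig2 was higher in GMYC tumors at an adjusted p under 0.05 (edgeR quasi-likelihood test, Benjamini-Hochberg adjustment over 21024 genes). The other 6 did not pass. These 3 calls are 33.3% of the factors, against 21.2% of all genes tested, 11.5% higher in GTML and 9.71% higher in GMYC, a distance of about 1 gene. Without GTML tumor 2 the same 3 were called, with log2 fold changes (GTML over GMYC) of 3.62 for Neurog2, 1.49 for Neurod2 and -2.73 for Olig2. The median log2 fold change of the factors was 0.17, beside 0.04 over all genes tested. All 9 passed the filter on low counts (more than 1 CPM, the counts scaled to a common library size, in at least 3 tumors), but Neurog2 passed through GTML tumors alone, so that it had to differ. Its call is therefore a description of these tumors, and nothing is read from the share of factors called. Fitted with no filter at all, Neurog2 had a log2 fold change of 3.85 (edgeR adjusted p = 0.0102). Neurog2 was the sole factor to pass the stricter pair of limits (0.01 for the adjusted p, 1 for the absolute log2 fold change), which 3.22% of all genes reached, and the sole factor whose models did not overlap, as in 4.62% of all genes. As the samples were bulk tissue, a higher value may reflect more cells with the transcript or more transcript per cell, and these cannot be told apart. The labels do not say whether the biopsies came from separate mice, so the p-values measure the spread between these samples.

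**Figure D1:**
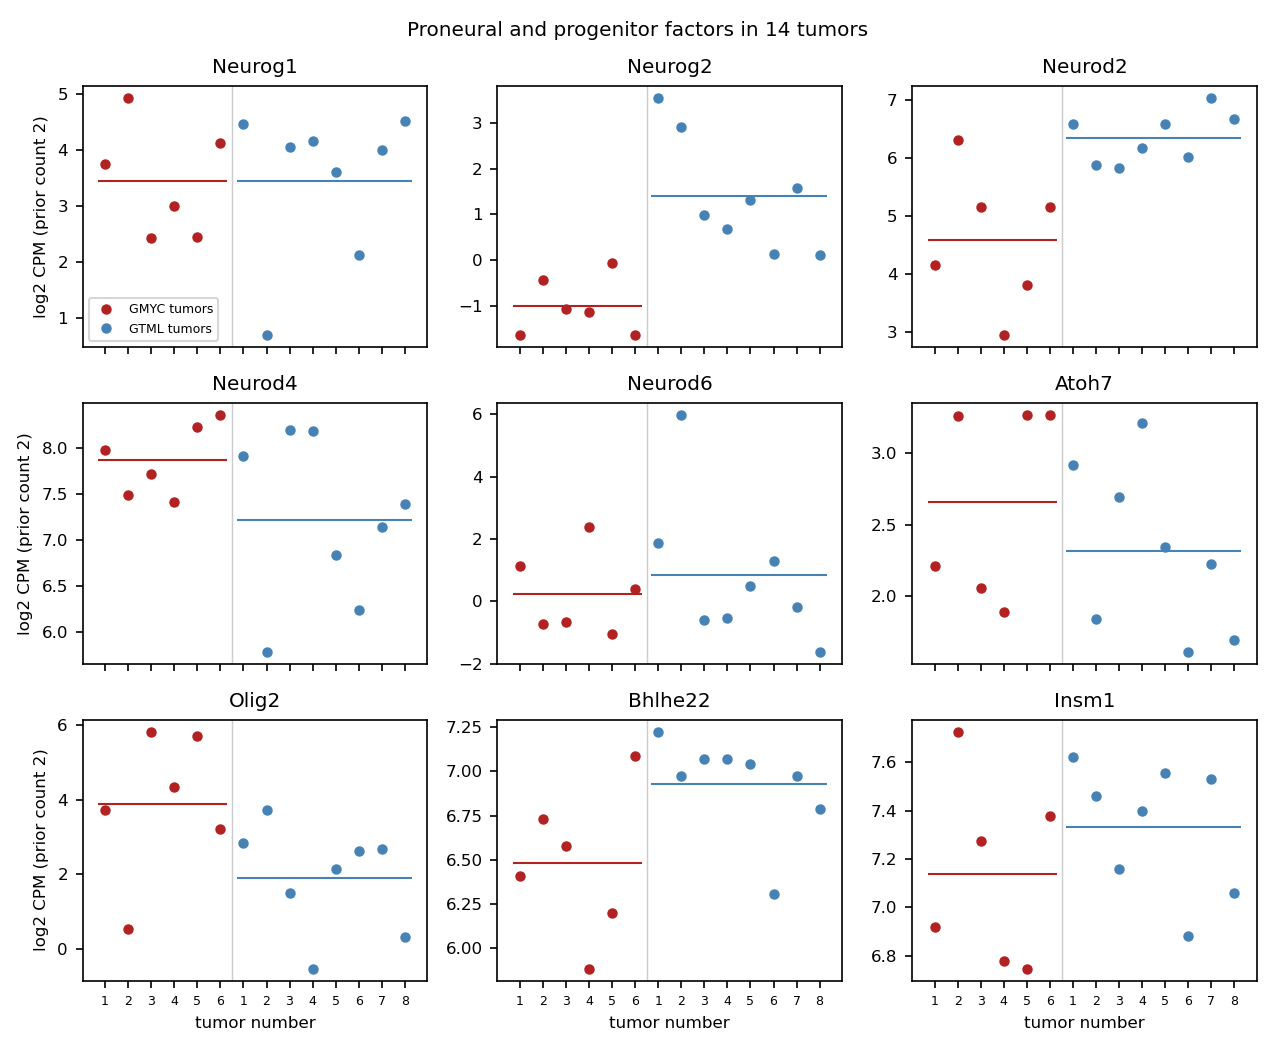
Level of the 9 factors in each tumor, as log2 CPM after normalization with a prior count of 2 (vertical axis, a range of its own in each panel), for GMYC tumors 1 to 6 (red) and GTML tumors 1 to 8 (blue), with lines at the group means. The models separate for Neurog2, 4 of 8 GTML tumors lie above all GMYC tumors for Neurod2, and GTML tumor 2 stands alone for Neurod6.

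**Figure D2:**
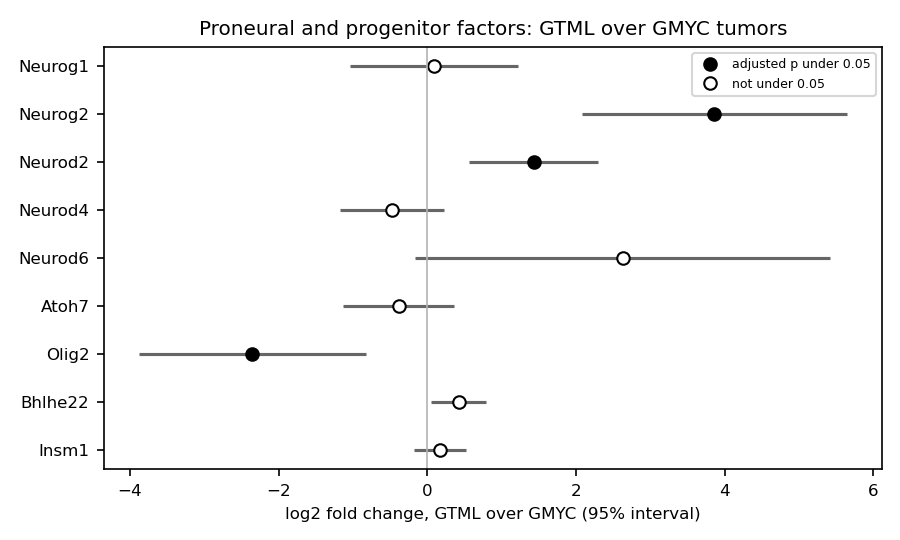
Log2 fold change (GTML over GMYC, horizontal axis) with its 95% interval for the 9 factors, filled where the edgeR adjusted p is under 0.05. Neurog2 and Neurod2 lie to the GTML side at 3.86 and 1.43 and Olig2 to the GMYC side at -2.35, while the widest interval, that of Neurod6, spans -0.17 to 5.42.

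Neurog2, a determination factor of cortical and spinal neurons, was the rarest of the factors. In GMYC tumors it had between 0 and 4 counts, that is 0 to 0.644 CPM with a median of 0.144. In GTML tumors it had between 4 and 64 counts, or 0.764 to 11.3 CPM with a median of 1.91. All 8 GTML tumors lay above all 6 GMYC tumors, and GTML tumor 1 (11.3 CPM) and GTML tumor 2 (7.16 CPM) held most of the GTML counts. The 2 GMYC tumors at 0 counts, numbers 1 and 6, allow levels of up to 0.43 and 0.424 CPM by counting error alone. The log2 fold change was 3.86 (SE 0.84, 95% interval 2.07 to 5.64, adjusted p = 0.00831 by edgeR's quasi-likelihood test), a 14.5-fold difference that rests on 9 counts in all on the GMYC side. Leaving out GTML tumors 1 and 2 lowered the log2 fold change to 2.71 (edgeR adjusted p = 0.00687). Those tumors are the only GTML tumors with 0.3% or more small nucleolar RNA, and among the 8 tumors below that share the log2 fold change was 2.23 and did not pass (edgeR adjusted p = 0.118). Without GMYC tumors 1 and 3 the value was 3.46 (edgeR adjusted p = 0.0539).

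The sequence ahead of the Neurog2 start is shown because the gene had the widest gap between models. It is the RefSeq promoter on GRCm38.p6 at chr3:127632886-127633134, plus strand, read 5′ to 3′ up to the annotated transcript starts. Capitals would mark E-boxes of the forms CAGNTG (in either orientation, the form bound by neurogenins and NeuroD factors) and CACGTG (the form bound by MYC and MYCN), and none is present.

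Neurog2: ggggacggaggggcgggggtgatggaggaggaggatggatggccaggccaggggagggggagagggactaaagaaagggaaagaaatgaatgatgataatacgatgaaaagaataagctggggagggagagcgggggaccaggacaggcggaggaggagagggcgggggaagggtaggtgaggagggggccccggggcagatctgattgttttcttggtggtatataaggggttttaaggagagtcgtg

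No CANNTG of any kind lay in the 250 bases before the Neurog2 start. Across the 32851 RefSeq promoters searched in the same way, 44.8% held a CAGNTG, 6.02% a CACGTG and 66.2% any CANNTG, a form that includes the other two. These are letters in a short window and say nothing of binding.

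Neurog1, the neurogenin of cranial sensory ganglia and parts of the hindbrain, was more abundant than Neurog2 and did not differ detectably. It ranged from 5.05 to 30.3 CPM in GMYC tumors (median 10.4) and from 1.30 to 22.6 CPM in GTML tumors (median 16). The ranges overlapped almost wholly, with GTML tumors 2 (1.30 CPM) and 6 (4.07 CPM) below every GMYC tumor. Its log2 fold change was 0.09 with a 95% interval of -1.03 to 1.21 (edgeR adjusted p = 0.916), which leaves room for about 1 log2 unit in either direction. Thus GTML tumor 2 had the lowest Neurog1 and the second-highest Neurog2 of its model.

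Among the NeuroD factors, which drive neuronal differentiation after the neurogenins, Neurod2 was higher in GTML. Neurod2 is known for its role in cortical and cerebellar granule neurons. It ranged from 7.41 CPM (GMYC tumor 4) to 78.7 CPM (GMYC tumor 2) with a median of 26.3 in GMYC tumors, and from 56.2 to 131 CPM with a median of 83.5 in GTML tumors. Every GTML tumor exceeded 5 of the 6 GMYC tumors, and 4 of the 8 exceeded GMYC tumor 2 as well. The log2 fold change was 1.43 (SE 0.41, 95% interval 0.56 to 2.3, adjusted p = 0.0241 by edgeR's quasi-likelihood test), a fitted 2.69-fold difference. Without GMYC tumor 1 or GMYC tumor 5 the log2 fold changes were 1.31 and 1.28 and the edgeR adjusted p-values 0.0546 and 0.0535, and without GMYC tumors 1 and 3 together 1.32 and 0.111. With the small nucleolar RNA side as a factor in the fit the value was 1.5 (edgeR adjusted p = 0.05), on the threshold, and within the sides it was 1.15 (edgeR adjusted p = 0.562) and 1.81 (0.0287). With the Y-linked level as a covariate it was 1.60 (edgeR adjusted p = 0.0578).

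The sequence ahead of the Neurod2 start is shown because it holds the single CAGNTG of this gene's window, in capitals. It lies on the minus strand of GRCm38.p6 at chr11:98329649-98329895 (RefSeq), and is printed 5′ to 3′ along the gene.

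Neurod2: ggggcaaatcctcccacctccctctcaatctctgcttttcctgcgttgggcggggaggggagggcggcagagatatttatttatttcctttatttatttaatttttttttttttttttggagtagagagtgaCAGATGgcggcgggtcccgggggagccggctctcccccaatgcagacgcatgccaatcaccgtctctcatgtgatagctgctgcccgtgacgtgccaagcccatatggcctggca

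Of the 7 factors with a RefSeq promoter in the table used, Neurod2 and Neurod6 had 1 CAGNTG and Atoh7 had 3 in the 250 bases before the start, Neurog1, Neurog2, Neurod4 and Olig2 had 0, and none had a CACGTG. Bhlhe22 and Insm1 were not matched.

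Neurod4, a factor of retinal and hindbrain interneurons, had the highest level per exon length of the 9 in GMYC tumors. It ranged from 170.4 to 330 CPM in GMYC tumors (median 232) and from 54.8 to 295 CPM in GTML tumors (median 155). In GTML, 5 tumors lay below every GMYC tumor, with tumor 2 (54.8 CPM) and tumor 6 (75.5 CPM) the lowest, while tumors 1, 3 and 4 stood at 242, 295 and 293 CPM. The log2 fold change was -0.48 (95% interval -1.17 to 0.22, edgeR adjusted p = 0.299). The GTML standard deviation of 94.0 CPM, against a mean of 173 CPM, was the wider one.

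Neurod6, a factor of forebrain pyramidal neurons, was near absent except in 1 tumor. GTML tumor 2 had 388 counts (63.1 CPM), the next GTML tumor had 3.35 CPM, and GTML tumor 8 had 0 counts, which allows up to 0.457 CPM. In GMYC tumors it ranged from 0.161 to 4.85 CPM with a median of 0.648, the highest in tumor 4. The log2 fold change over all tumors was 2.63 (95% interval -0.17 to 5.42, edgeR adjusted p = 0.156), and without GTML tumor 2 it turned to -0.36 (edgeR adjusted p = 0.769). The bHLH gene Olig3, of dorsal hindbrain progenitors, had 392 counts in the same tumor, 11 in GTML tumor 1 and at most 3 elsewhere. Olig3 was named after its values had been seen. Of the other forebrain neuron genes in that tumor, Emx2 had 2 counts and Camk2a had 145, fewer than in GTML tumor 6 (665) and GMYC tumor 4 (558). Tbr1 went the other way, with its highest count there (107, or 17.4 CPM), although GTML tumor 5 reached 17.5 CPM with 81 counts. Summed with Neurod6, the forebrain neuron genes stood at 233 CPM there, within the GTML range of 162 to 335 CPM.

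The remaining neuronal factors did not pass the test. Atoh7, the determination factor of retinal ganglion cells, ranged from 3.37 to 9.34 CPM in GMYC tumors (median 6.80) and from 2.72 to 8.94 CPM in GTML tumors (median 4.54), with a log2 fold change of -0.38 (95% interval -1.13 to 0.36, edgeR adjusted p = 0.438). Genes that follow Atoh7 in the retina were spread differently. Pou4f2 had at most 4 counts in any tumor, whereas Isl1 and Pou4f1 were higher in GMYC by log2 fold changes (GTML over GMYC) of -3.40 and -4.37 (edgeR adjusted p = 0.0165 and 0.00279). In GMYC tumors Isl1 reached 23.2 CPM with a median of 2.00. Pou4f1 ran from 0.422 to 68.5 CPM in GMYC and from 0.529 to 7.64 CPM in GTML, so the models overlapped. Of the other ganglion cell genes tested, Rbpms gave 0.51 (edgeR adjusted p = 0.153) and Ebf3 -1.46 (0.18).

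Bhlhe22, a repressor in retinal, spinal and cortical neurons, ranged from 58.8 to 135 CPM in GMYC tumors (median 89.8) and from 79.0 to 149 CPM in GTML tumors (median 129). GTML tumor 6, at 79.0 CPM, was the single GTML tumor below 110 CPM, and GMYC tumor 6, at 135 CPM, the single GMYC tumor above it. The log2 fold change was 0.42 (SE 0.17, 95% interval 0.06 to 0.79), with an unadjusted p of 0.0267 in edgeR that did not survive adjustment (adjusted p = 0.0883). Leaving out GMYC tumor 6 raised it to 0.56 with an edgeR adjusted p of 0.0294, so that 1 tumor decided which side of the threshold it fell on.

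Insm1, which pushes progenitors towards their last divisions, ranged from 107 to 212 CPM in GMYC tumors (median 138) and from 118 to 197 CPM in GTML tumors (median 172). The groups overlapped throughout, and the log2 fold change of 0.17 had a 95% interval of -0.18 to 0.52 (edgeR adjusted p = 0.458).

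Olig2, which specifies oligodendrocytes and motor neurons, was the factor higher in GMYC tumors. It ranged from 1.13 CPM (tumor 2) to 56.6 CPM (tumor 3) in GMYC, with 52.3 CPM in tumor 5 and a median of 16.4, and from 0.365 CPM (tumor 4) to 12.8 CPM (tumor 2) in GTML, with a median of 4.96. The models overlapped, as GMYC tumor 2 lay below 6 GTML tumors, and 4 GMYC tumors lay above all GTML tumors. The log2 fold change was -2.35 (SE 0.72, 95% interval -3.87 to -0.83, adjusted p = 0.0311 by edgeR's quasi-likelihood test), so that the fitted GMYC level was 5.10 times the GTML level. Within the side with more small nucleolar RNA it was -1.18 (edgeR adjusted p = 0.7) and within the other -3.23 (0.0304). With the Y-linked covariate it was -2.3 (edgeR adjusted p = 0.146). The call was lost on leaving out GMYC tumor 3 (-1.94, edgeR adjusted p = 0.0884), GMYC tumor 5 (-2.01, 0.0791), GTML tumor 3 (-2.25, 0.051) or GTML tumor 5 (-2.31, 0.0567), and in limma-voom (-2.06, adjusted p = 0.11).

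The sequence ahead of the Olig2 start is shown as that of the single factor higher in GMYC. It is on the plus strand of GRCm38.p6 at chr16:91225300-91225456 (RefSeq), cut at the earliest annotated start, and holds neither form of the E-boxes named above.

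Olig2: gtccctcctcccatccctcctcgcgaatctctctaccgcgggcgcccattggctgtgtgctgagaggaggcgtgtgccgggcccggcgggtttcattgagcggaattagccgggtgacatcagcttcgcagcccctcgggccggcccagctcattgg

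Olig2 is shared by tumor cells of some lineages and by normal oligodendrocyte precursors, so the oligodendrocyte markers are given with it. At the protein level, the study reports GMYC tumors as mostly negative for OLIG2 by staining, with rare positive cells found in them at times. Their summed level was 217 to 465 CPM in GMYC tumors and 186 to 411 CPM in GTML tumors. Of 12 markers tested, Olig1 was higher in GMYC, Mog was higher in GTML and 10 did not pass. Olig1, the neighbour and relative of Olig2, had a log2 fold change of -1.5 (edgeR adjusted p = 0.0312), and Mog, a protein of mature myelin, one of 1.56 (0.0104). DESeq2 called 3 of the 12 and limma-voom 1. Of the genes of precursors, Gpr17 gave -1.55 (edgeR adjusted p = 0.0716), Sox10 -0.71 (0.215), Pdgfra -0.47 (0.549) and Cspg4 0.07 (0.891), and no marker of the list was at 0 in every tumor. Astrocyte markers summed to 809 to 1441 CPM in GMYC and 546 to 986 CPM in GTML. Of these 8, edgeR called 0 (2 at an unadjusted p under 0.05), DESeq2 1 and limma-voom 0. All of them had log2 fold changes below 0, with a median of -0.79. The largest part of the sum was Slc1a2, the Glt1 gene, at 702 CPM in GMYC and 587 CPM in GTML on average. Since the promoter of Glt1 drives both transgenes, the sum does not measure normal astrocytes alone. The part of normal glia in the Olig2 difference was not tested.

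Per kilobase of exon the factors differed widely in level. In GMYC tumors the mean levels in CPM per kilobase ran Neurod4 71.9, Insm1 46.8, Bhlhe22 27.6, Olig2 9.99, Neurod2 9.95, Neurog1 7.76, Atoh7 4.04, Neurod6 0.656 and Neurog2 0.101. The ranges of every pair of neighbours in that order overlapped, although Insm1 exceeded Bhlhe22 and Bhlhe22 exceeded Olig2 in 6 of 6 tumors. In GTML tumors the order was Insm1 52.7, Neurod4 51.7, Bhlhe22 37.0, Neurod2 26.8, Neurog1 8.26, Neurod6 4.12, Atoh7 3.09, Olig2 1.95 and Neurog2 1.56. The step from Neurod2 to Neurog1 was the single one between neighbours without overlap. Neurod6 owes its GTML place to tumor 2, since it exceeded Atoh7 in 1 of 8 tumors.

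**Figure D3:**
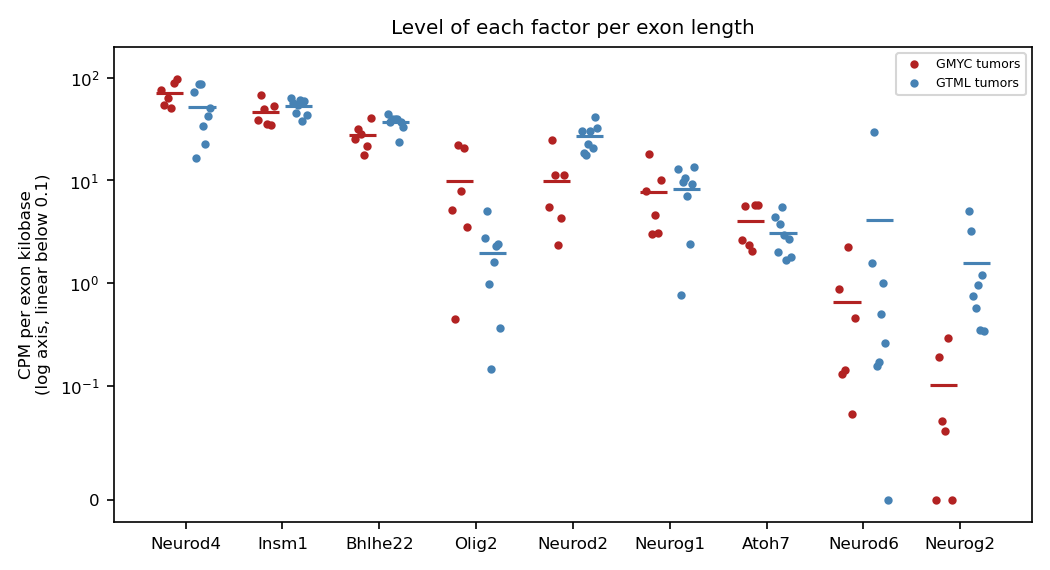
Level of each factor per kilobase of exon, in CPM per kilobase on a logarithmic axis that is linear below 0.1, with 1 point per tumor (GMYC red, GTML blue) and lines at the group means. Neurod4, Insm1 and Bhlhe22 lead in both models, with means from 27.6 to 71.9, and Neurog2 is last in both, at 0.101 and 1.56.

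Within a model the factors did not vary together in a way that passed adjustment. Of 72 pairs (36 in each model), 11 had an unadjusted exact permutation p under 0.05 by Pearson's r, 8 of them in GTML, and 0 passed after Benjamini-Hochberg adjustment by Pearson or Spearman. With 6 GMYC tumors the smallest possible exact p is 0.00139. A GMYC pair that stands alone at that p among 72 has an adjusted p of 0.1 and cannot pass. Nothing is therefore concluded from the lack of GMYC pairs past adjustment. Across the 8 GTML tumors Neurog1 and Neurod4 gave r = 0.870 (exact permutation p = 0.0031, adjusted p = 0.1) and rho = 0.762 (exact permutation p = 0.0368, adjusted p = 0.294), but r fell to 0.485 without the 2 tumors farthest from the median of Neurog1. In the 6 GMYC tumors Neurog1 and Olig2 ran in opposite order, with r = -0.974 (exact permutation p = 0.00139, adjusted p = 0.1) and rho = -1 (exact permutation p = 0.00278, adjusted p = 0.1), and r was -0.970 in the 4 tumors left after the same step. Neurod2 and Insm1 in GMYC gave r = 0.959 (exact permutation p = 0.00417, adjusted p = 0.1) and rho = 0.943 (exact permutation p = 0.0167, adjusted p = 0.2), with r = 0.989 in 4 tumors. Atoh7 and Bhlhe22 in GTML gave r = 0.746 (exact permutation p = 0.0131, adjusted p = 0.189) and rho = 0.952 (exact permutation p = 0.00114, adjusted p = 0.0821), with r = 0.915 without 2 tumors.

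The genes whose log2 CPM was most like that of each factor over the 14 tumors were sought among 15324 protein-coding genes and are given as a description, as levels that differ between models raise such values by themselves. They were Kbtbd6 (Pearson r = 0.892) and Ap3b2 (0.866) for Neurog1, Rnf166 (0.912) and Shb (0.911) for Neurog2, and Olfr1393 (0.931) and Barhl2 (0.904) for Neurod2. For Neurod4 they were Abhd3 (r = 0.929) and Apbb1 (0.924), for Neurod6 Cpne8 (0.907) and Ntn1 (0.890), and for Atoh7 Copa (0.817) and Znhit2 (0.798). Olig2 was nearest to Deptor (r = 0.884) and Enpp2 (0.865), Bhlhe22 to Trmt1l (0.898) and Taf1 (0.875), and Insm1 to Bok (0.812) and Bard1 (0.799). For Neurod6, r within the 6 GMYC tumors was 0.943 for Cpne8 and 0.954 for Ntn1, and within the 8 GTML tumors 0.911 and 0.939.

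Partners, inhibitors and targets of the factors were read from 8 lists. Of 67 genes tested, 5 were higher in GTML, 6 were higher in GMYC and 56 did not pass, against 21.2% called among all genes, and their median log2 fold change was -0.03. Among other proneural and neuronal bHLH genes, 6 of 12 were tested, Nhlh2 was higher in GTML and Olig1 and Neurod1 were higher in GMYC. Nhlh2, a neuronal factor downstream of proneural genes, ranged from 1.58 to 13.8 CPM in GMYC tumors (median 2.42) and from 6.20 to 108 CPM in GTML tumors (median 42.5). Its log2 fold change was 3.34 (SE 0.61, edgeR adjusted p = 0.00419), and 7 of 8 GTML tumors lay above all GMYC tumors. Neurod1, the abundant NeuroD factor of granule neurons, differed little in size, with 238 ± 17.3 CPM (SD, n = 6) in GMYC and 203 ± 12.8 CPM (SD, n = 8) in GTML and a log2 fold change of -0.23 (adjusted p = 0.0426 in edgeR).

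E proteins, the binding partners, and ID proteins, which sequester E proteins, had 0 of 3 and 0 of 4 genes called by edgeR, with 1 in each list at an unadjusted p under 0.05, 1 and 0 called by DESeq2 and 1 and 0 by limma-voom. Tcf3 had 119 ± 13.2 CPM (SD, n = 6) in GMYC and 117 ± 16.8 CPM (SD, n = 8) in GTML, and Id1 had 7.08 ± 2.95 CPM and 9.19 ± 5.08 CPM. Tcf4 came closest, with a log2 fold change of -0.56 (edgeR adjusted p = 0.0544). Among 7 HES and HEY repressors, the effectors of Notch, only Hey1 was called, higher in GMYC with 45.5 CPM against 27.6 CPM on average and a log2 fold change of -0.72 (SE 0.19, edgeR adjusted p = 0.0166). Hes6, which promotes differentiation and was the most abundant of the list per exon length, gave -0.41 (edgeR adjusted p = 0.0663).

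Of 11 described targets of proneural factors, Dll4, Tbr1 and Cbfa2t3 were higher in GTML, Dll3 was higher in GMYC and 7 did not pass. The Notch ligand Dll4 had a log2 fold change of 1.04 (SE 0.32, edgeR adjusted p = 0.0313), and the related Dll3 one of -1.23 (SE 0.37, edgeR adjusted p = 0.029). Dll1, the ligand most often tied to neurogenins, averaged 22.8 CPM in GMYC and 53.6 CPM in GTML and did not pass (log2 fold change 1.24, edgeR adjusted p = 0.0889). Tbr1, of deep-layer cortical and some cerebellar neurons, averaged 2.81 CPM and 8.74 CPM (log2 fold change 1.63, edgeR adjusted p = 0.0457). Cbfa2t3, a co-repressor, averaged 4.58 CPM and 11.4 CPM (1.31, edgeR adjusted p = 0.0478). Btg2, an antiproliferative gene of neurogenic progenitors, was the most abundant of these and stood at 217 ± 55.9 CPM (SD, n = 6) and 208 ± 52.5 CPM (SD, n = 8).

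Among 11 neuronal zinc finger and EBF genes, only Scrt2 was called. Scrt2, a Snail-family repressor of newborn neurons, ranged from 0.918 to 9.43 CPM in GMYC tumors (median 2.56) and from 4.72 to 51.3 CPM in GTML tumors (median 23.4), with a log2 fold change of 2.82 (SE 0.54, edgeR adjusted p = 0.00532). The lowest GTML tumor was tumor 2. Rcor2, a co-repressor of neural progenitors, stood at 196 and 186 CPM and Insm2, the relative of Insm1, at 3.96 and 9.92 CPM, and neither passed. Of 10 progenitor genes 0 were called by edgeR (3 at an unadjusted p under 0.05), 1 by DESeq2 and 0 by limma-voom, with Msi1 at 164 and 213 CPM, and Sox1 was not analysed here. Of 15 differentiating neuron genes, Tubb3 and Nefl were higher in GMYC and 13 did not pass. Nefl, a neurofilament subunit, ranged from 36.2 to 62.4 CPM in GMYC and from 9.65 to 30.3 CPM in GTML without overlap (log2 fold change -1.26, SE 0.26, edgeR adjusted p = 0.00643). Tubb3, a neuronal tubulin, averaged 213 and 158 CPM (log2 fold change -0.44, SE 0.12, edgeR adjusted p = 0.0226). Calls on Nhlh2, Scrt2, Nefl and Hey1 held with any 1 tumor left out. That on Tubb3 was lost without GMYC tumor 5 (-0.39, edgeR adjusted p = 0.0565), and that on Dll3 without GMYC tumor 1, 5 or 6 (edgeR adjusted p up to 0.083). That on Olig1 was lost without GMYC tumor 1, 5 or 6 or GTML tumor 5, 7 or 8 (up to 0.0819 in edgeR), and that on Dll4 without GMYC tumor 1, 2, 3 or 6 or GTML tumor 5, 6 or 7 (up to 0.0685). Calls on Neurod1 and Tbr1 were lost without most single tumors. For Neurod1 they held only without GMYC tumor 4 or GTML tumor 2 or 4, and for Tbr1 only without GMYC tumor 4 or GTML tumor 1, 3 or 4. Their edgeR adjusted p reached 0.0975.

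**Figure D4:**
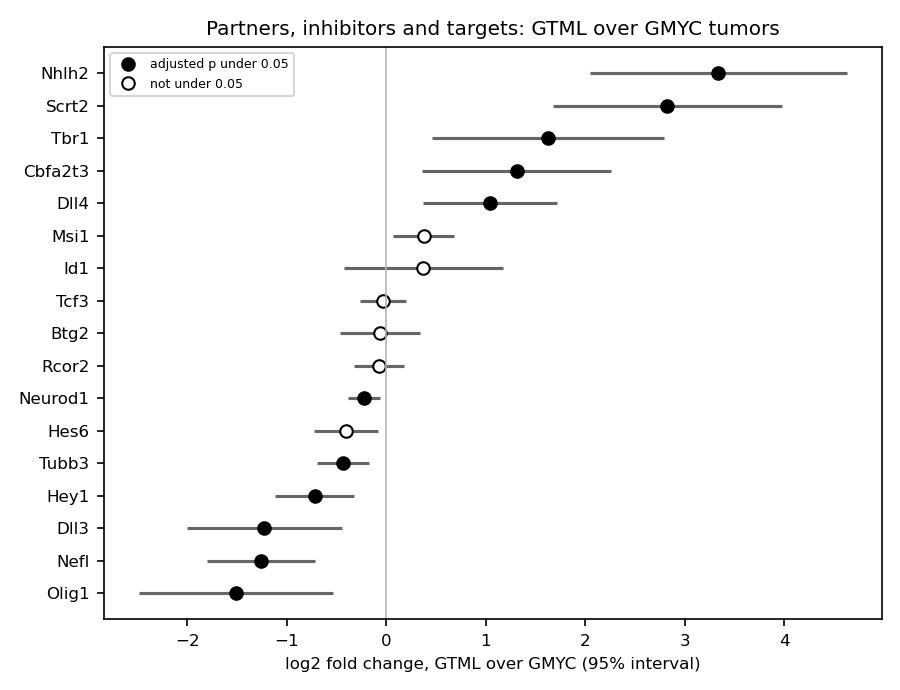
Log2 fold change (GTML over GMYC, horizontal axis) with its 95% interval for 17 partners, inhibitors and targets (the 11 called and the 6 most abundant of their lists that were not), filled where the edgeR adjusted p is under 0.05. Nhlh2 and Scrt2 lie farthest to the GTML side at 3.34 and 2.82, and Olig1, Nefl and Dll3 farthest to the GMYC side at -1.5, -1.26 and -1.23.

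The calls on the factors were also followed over other filters, scalings, tools and sets of tumors. Neurog2 kept its direction under 27 of 27 alternatives and its side of the threshold under 24. As it passed the filter through GTML tumors alone, that tally describes these counts and adds no support for a difference. Neurod2 kept its direction under 28 of 28 and its side under 20, and Olig2 under 28 of 28 and 18. The plot of fold changes by setting shows that Neurod6 was the factor whose value moved farthest.

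**Figure D5:**
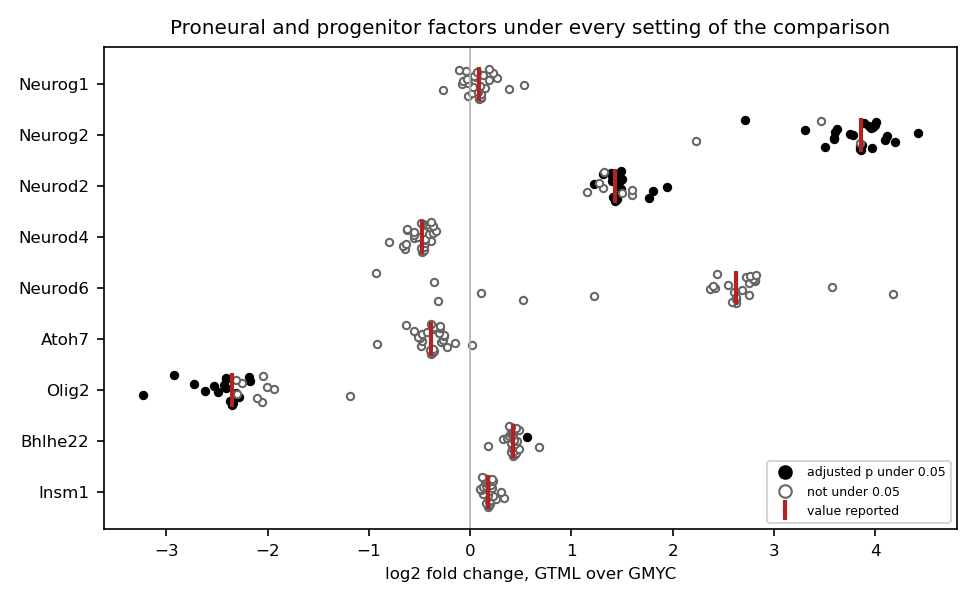
Log2 fold change of each factor (horizontal axis) under every setting of the comparison that gave a value, 1 point per setting, filled where its adjusted p is under 0.05, with a red mark at the value in the text. Neurog2 runs from 2.23 to 4.42, Neurod2 from 1.15 to 1.94 and Olig2 from -3.23 to -1.18, and Neurod6 lies on either side of 0, from -0.93 to 4.18.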

How the data were processed

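RNA from fresh-frozen biopsies of 6 GMYC and 8 GTML tumors was extracted with RNeasy kits and sequenced on an Ion Torrent instrument. Some GTML libraries were made for earlier work and others were added, and the labels do not say which. The study used 7 GTML tumors in part of its work, and as the labels do not name them all 8 were kept. The authors mapped the reads to mm9 (STAR in a two-pass mode, followed by Bowtie), summarised them over genes by featureCounts, and deposited raw whole-number counts. The submitters' processing notes name STAR 2.4.0, Bowtie2 2.2 and Subread 1.5.2, and the methods of the study give other versions of the aligners. The handling of strand and duplicate reads is not given in the sources used here. Counts of 18 further columns, whose names correspond to none of the labels, were left out.

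Symbols and exon lengths came from GENCODE vM21 on GRCm38 by Ensembl identifier (32620 of 37310 genes). In that annotation no other gene overlapped an exon of the 9 factors. Promoters came from RefSeq on GRCm38.p6 (7 of 9 factors matched). GTML was tested against GMYC by edgeR 4.0.16 under R 4.3.3 (TMM, quasi-likelihood test, Benjamini-Hochberg over genes with CPM above 1 in at least 3 tumors, call at adjusted p under 0.05). Levels are CPM on TMM-scaled library sizes, and log2 values for plots and correlations use a prior count of 2. Alternatives were limma 3.58.1 (voom, the test of the study), DESeq2 1.42.0 (74 genes without an adjusted p), other filters and scaling, thinning to the smallest total, terms for the small nucleolar RNA share and for Y-linked genes, the replicate number as a block, and each tumor left out. After the data had been seen, 2 more were added: without GMYC tumors 1 and 3, and without GTML tumors 1 and 2. The code was tested on simulated data. Correlations used exact two-sided permutation tests. Intervals for counts of 0 (3 counts allowed) cover counting error only.

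The factors and gene lists were chosen with earlier results of these data known. Named are the 9 factors, Myc and Mycn, from each pathway list up to 3 called genes of smallest p and the gene of highest CPM per kilobase, and for each factor the 2 protein-coding genes of highest r. Marker genes were named where a result turned on them. Tcf4, Dll1, Cbfa2t3, Insm2 and Olig3 fall outside the rule and were chosen after their values had been seen. Plots were made in Python 3.11.15 by matplotlib 3.10.9.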

Additional observations from a re-analysis of the deposited data

Results flagged for a closer look

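In each model the values of the 9 factors, the drivers and the named pathway genes were checked, 54 groups in all. Of these, 7 held a tumor far from the rest of its group by Dixon's test. For independent groups of normal values the limit used would give 2.7. As the groups share tumors and CPM values were not transformed, nothing is read from the excess. Neurod6 stood apart in GTML tumor 2 at 63.1 CPM (next 3.35 CPM, the gap being 0.947 of the group's range) and in GMYC tumor 4 at 4.85 CPM (next 1.87 CPM, 0.637). Nhlh2 stood apart in GTML tumor 2 at 108.3 CPM (next 54.5 CPM, 0.527) and in GMYC tumor 5 at 13.8 CPM (next 5.35 CPM, 0.693). Dll4 in GMYC tumor 5 was 8.69 CPM (next 5.26 CPM, 0.666). Scrt2 in GMYC tumor 2 was 9.43 CPM (next 3.59 CPM, 0.686). Myc in GMYC tumor 6 was the lowest of its group at 33.4 CPM (next 134 CPM, 0.763). GTML tumor 2 accounts for 2 of the 7 and GMYC tumor 5 for 2.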

How the results depend on the processing

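The 3 factors, 11 pathway genes and 4459 genes in all that were called became 1, 3 and 676 at an adjusted p under 0.01 with an absolute log2 fold change above 1. With the Y-linked covariate they were 1, 4 and 1679. Among tumors with 0.3% or more small nucleolar RNA (4 GMYC, 2 GTML) they were 0, 0 and 2, where Neurog2 fell below the filter, and among the others 7 pathway genes and 2662 genes in all. The term for that split gave 2851 genes in all. Without GMYC tumors 1 and 3 the counts were 0, 3 and 883, and without GTML tumors 1 and 2 the count of all genes was 7305. DESeq2 called 17 pathway genes and 5852 genes in all. Fewer tumors are part of several of these settings, and other causes were not tested. Leaving out 1 tumor gave 1 to 4 factors (1 without GMYC tumor 5), 5 to 16 pathway genes (5 without GMYC tumor 1, 6 without GMYC tumors 5 or 6 or GTML tumors 5 or 7, 7 without GMYC tumor 3 or GTML tumor 6) and 2617 to 6430 genes in all (2617 without GMYC tumor 3, 2916 without GMYC tumor 5). The replicate block, with numbers shared by label alone, gave 0, 2 and 251. Deviations of same-numbered tumors correlated between -0.21 and 0.24. With no values of differently numbered tumors beside them, these do not decide whether the numbers pair tumors, and the labels do not say that they do. Correlations between factors gave 0 to 1 pairs past adjustment when 1 GTML tumor was left out (1 without tumor 1), and leaving out a GMYC tumor was not run, as 5 would remain.

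Log2 fold changes that changed sign were all of genes that were not called. Neurod6 was -0.32 in DESeq2, which replaced the count of 388 in GTML tumor 2 by 7, -0.93 without GTML tumors 1 and 2, and -0.36 to 3.58 with 1 tumor left out. Neurog1 was -0.0228 in limma-voom, -0.11 without GMYC tumors 1 and 3, and -0.0773 to 0.53 with 1 tumor left out. On the side with more small nucleolar RNA, Neurog1 was -0.27, Atoh7 0.0192, Tcf3 0.10, Id1 -0.27, Btg2 0.0257 and Rcor2 0.0931. With 1 tumor left out, Tcf3 ran from -0.0817 to 0.0223, Btg2 from -0.15 to 0.036 and Rcor2 from -0.12 to 0.0166. Scaling moved the median of all genes from 0.04 by at most 0.02. Factors with few counts, Neurog2 and Neurod6, are the least precise at this depth.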

Other observations

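Markers of other cell types were read beside the factors. Of 10 photoreceptor genes, edgeR called 6, all higher in GTML (11.5% of all genes were), DESeq2 called 7 and limma-voom 1, with summed levels of 476 to 638 CPM in GMYC tumors and 178 to 1754 CPM in GTML tumors. Of 7 granule neuron genes tested, Barhl1 was higher in GTML, Neurod1, Cbln3 and Etv1 were higher in GMYC and 3 did not pass in edgeR, while DESeq2 called 4 and limma-voom 2. The Cbln3 call rests on GMYC tumors 1 and 3, the 2 GMYC tumors above 1 CPM. Its median was 0.907 CPM in GMYC and 1.11 CPM in GTML. Of 7 forebrain excitatory neuron genes Tbr1 was higher in GTML, of 6 endothelial genes Kdr was, and of 4 retinal ganglion cell genes tested Pou4f1 and Isl1 were higher in GMYC (DESeq2 called 1, 1 and 2 in these lists, and limma-voom 1 in each). For Purkinje cells 0 of 6 genes were called by edgeR (3 at an unadjusted p under 0.05), 3 by DESeq2 and 1 by limma-voom. For microglia and macrophages 0 of 8, and for Group 3 medulloblastoma 0 of 7, were called by edgeR, DESeq2 or limma-voom, with 0 at an unadjusted p under 0.05. The Group 3 genes summed to 662 CPM in GTML tumor 2 and to 1028 CPM or more in every other tumor, and Eys was not analysed here.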
